A study of Rattus norvegicus with 18 samples.

Results

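MHC class II presentation was examined through 10 genes in the lungs of male F344 rats: the 4 chains of the classical class II molecules (*RT1-Da*, *RT1-Db1*, *RT1-Ba* and *RT1-Bb*), the invariant chain *Cd74*, both chains of the peptide exchange factor (*RT1-DMa* and *RT1-DMb*), the class II transactivator *Ciita*, and the co-stimulatory ligands *Cd80* and *Cd86*. They were taken by an exact match of their symbols, which found all 10 among the 22081 gene entries of the files. The study instilled the multi-walled carbon nanotube (MWCNT) MWNT-7, a long rigid fiber, into the trachea of rats repeatedly for up to 2 years, and the rats analysed here received either the high dose (MWCNT-treated rats) or the saline-based vehicle alone (control rats). There were 18 rats, 3 per treatment at Year 0.5, 1 and 2. Time in the study is therefore also the age of the rats and the number of instillations received, of MWCNT or of vehicle. RNA came from small pieces of the accessory lobe of the lung, tissue with tumor nodules visible at necropsy having been excluded.

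Class II molecules are heterodimers of an α and a β chain that show peptides from engulfed material to CD4 T cells. In the rat, the RT1-D pair corresponds to HLA-DR and the RT1-B pair to HLA-DQ of humans. CD74 occupies the groove of newly made dimers and steers them to endosomes, where proteases cut it down to a short remnant that the RT1-DM dimer exchanges for antigen peptide. CIITA has no DNA binding domain of its own and works by docking onto factors bound to the X and Y boxes of class II promoters. CD80 and CD86 on the antigen-presenting cell engage CD28 and CTLA-4 on T cells. In the lung, class II is carried by dendritic cells, macrophages and B cells, and also by alveolar type 2 cells, the epithelial cells that secrete surfactant.

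The promoters of the class II chains are shown first, because the X and Y boxes are the shared feature through which these genes are regulated. RefSeq promoters on the GRCr8 assembly matched 8 of the 10 genes, with no entry for *RT1-DMb* and *Ciita*. The last 130 bases before the transcription start are given 5′ to 3′ on the strand of the gene, with matches to the Y box core TGATTGG and to the end of the X box, ACNGATG, in capitals. These GRCr8 positions are not those of the expression files, which use Rnor_6.0.
*RT1-Da*, chr20:4515285-4515414, plus strand: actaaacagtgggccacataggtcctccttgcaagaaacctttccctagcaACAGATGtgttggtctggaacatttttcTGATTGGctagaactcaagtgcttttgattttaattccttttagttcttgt
*RT1-Db1*, chr20:4560163-4560292, minus strand: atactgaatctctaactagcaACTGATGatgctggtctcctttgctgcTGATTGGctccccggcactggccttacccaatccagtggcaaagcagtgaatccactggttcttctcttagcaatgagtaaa
*RT1-Ba*, chr20:4576927-4577056, plus strand: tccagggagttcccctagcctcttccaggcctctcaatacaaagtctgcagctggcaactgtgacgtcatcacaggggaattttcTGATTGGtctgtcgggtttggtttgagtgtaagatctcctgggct
*RT1-Bb*, chr20:4604119-4604248, minus strand: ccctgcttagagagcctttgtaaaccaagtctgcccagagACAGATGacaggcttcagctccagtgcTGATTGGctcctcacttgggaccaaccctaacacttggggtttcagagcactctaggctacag
*RT1-DMa*, chr20:4712336-4712465, minus strand: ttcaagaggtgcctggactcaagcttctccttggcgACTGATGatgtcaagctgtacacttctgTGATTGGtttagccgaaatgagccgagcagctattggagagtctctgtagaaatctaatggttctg

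Within 250 bases before the start, searched on both strands, TGATTGG was found in all 5 of these chain promoters and ACNGATG in 4, the exception being *RT1-Ba*. Of 33469 rat promoters searched the same way, 6.42% held TGATTGG, 8.55% held ACNGATG and 0.541% held both. The matches to the motifs did not overlap. In *RT1-Da* and *RT1-DMa* the Y box core began 28 bases after the X box match, and in *RT1-Db1* and *RT1-Bb* 27 bases after it. Both motifs on 1 strand at either of these distances were present in 4 promoters (0.012%), which were the same 4 genes; the distances were read from these genes, so this share is a description. The promoter of *RT1-DOb*, a class II chain outside the 10 genes, had the motifs 25 bases apart, and that of *RT1-DOa* had TGATTGG alone. Neither motif was found in the windows of *Cd74*, *Cd80* (2 start sites) or *Cd86*. A match of letters is not evidence of binding, and the lack of an exact match does not show that a box is absent. These windows were not measured here.

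The 10 genes were higher in MWCNT-treated rats at every time point. A DEG was a gene with a false discovery rate (FDR) below 0.05 by edgeR's quasi-likelihood test and an absolute log2 fold change above 1, and all 10 genes passed the filter on low counts at each time point. By this rule 10 of 10 were upregulated DEGs at Year 0.5, 9 of 10 at Year 1 and 10 of 10 at Year 2. Over all genes tested, upregulated DEGs made up 6.07%, 6.13% and 8.17% at the respective time points. The one gene short of the rule was *Ciita* at Year 1, which passed the FDR but not the fold limit. In addition, the 3 MWCNT-treated rats lay above the 3 control rats for each of the 10 genes at each time point, against 26.2%, 28.5% and 30.4% of all genes. The median log2 fold change of the 10 genes was 1.38 at Year 0.5, 1.48 at Year 1 and 1.64 at Year 2, beside medians of -0.02, 0.00 and -0.01 over all genes tested. These are bulk tissue values, in which more cells of a type and more RNA per cell cannot be told apart. Total counts were between 13297643 and 21130757 per rat, and scaling to these totals alone shifted the median of all genes by -0.10, -0.13 and -0.17, far less than the differences of the 10 genes. The lung markers *Sftpc*, *Ager* and *Scgb1a1*, of alveolar type 2, alveolar type 1 and club cells, were present in every rat. Their levels moved with treatment: *Sftpc* rose with log2 fold changes of 0.96, 0.97 and 1.00 and *Scgb1a1* fell with -0.87, -0.91 and -0.80, while *Ager* had -0.45, -0.20 and -0.63 and fell at Year 0.5 and Year 2. Their part in the levels of the 10 genes was not tested.

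**Figure D1:**
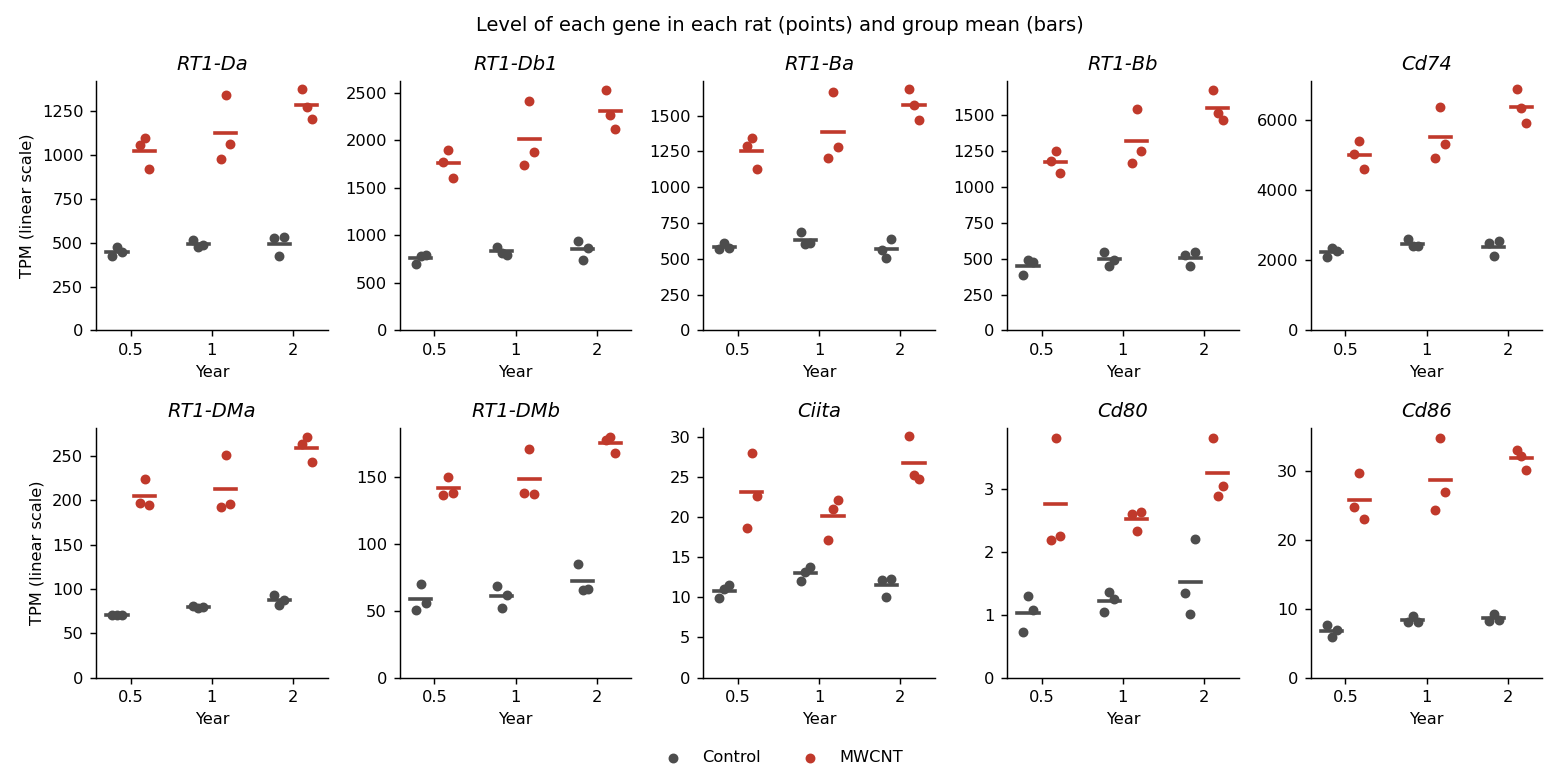
Level of each of the 10 genes in TPM (a level per transcript length, linear axis from 0) at Year 0.5, 1 and 2; each point is 1 rat (control rats grey, MWCNT-treated rats red) and each bar the mean of 3 rats. In every panel and at every time point the red points lie above the grey ones.

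*Cd74* (ENSRNOG00000018735, chr18:56071478-56080849 on Rnor_6.0, as are all positions below unless stated) was the most abundant of the 10 genes. Its TPM, a level per transcript length that is scaled to the same total in each rat, was 2088, 2357 and 2273 in control rats and 5029, 5411.5 and 4615 in MWCNT-treated rats at Year 0.5. At Year 1 it was 2609.6, 2406 and 2416 in control rats and 4912, 6361 and 5305 in MWCNT-treated rats. The levels at Year 2 were 2497, 2127 and 2539.7 in control rats and 6875, 6352 and 5907 in MWCNT-treated rats. The lowest MWCNT-treated rat was thus well above the highest control rat at each time point, and replicate 2 of MWCNT Year 1 stood above the other 2 rats of its group. The log2 fold changes were 1.31 ± 0.09, 1.40 ± 0.13 and 1.63 ± 0.11 (SE) at Year 0.5, 1 and 2, with FDRs of 1.94e-05, 8.78e-05 and 5.58e-06. *Cd74* alone took 0.209 to 0.261% of all TPM in the 9 control rats and 0.462 to 0.687% in the 9 MWCNT-treated rats, and the 10 genes together took 0.431 to 0.541% and 0.974 to 1.46%.

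The RT1-D pair moved closely with it. *RT1-Db1* (ENSRNOG00000033215, chr20:4087618-4097190), the β chain, had mean TPM of 759 ± 50.5, 830.1 ± 46.3 and 851 ± 99.7 (SD, n = 3) in control rats at Year 0.5, 1 and 2. In MWCNT-treated rats the means of *RT1-Db1* were 1756 ± 149, 2011 ± 355 and 2305 ± 207. Its log2 fold changes were 1.36 ± 0.09, 1.52 ± 0.15 and 1.65 ± 0.13 (SE). *RT1-Da* (ENSRNOG00000032844, chr20:4127644-4132616), the α chain, had means of 451 ± 23.1, 493 ± 21.1 and 496 ± 62.8 TPM in control rats. Its means in MWCNT-treated rats were 1027 ± 92.6, 1128.5 ± 191 and 1286 ± 84.3 TPM, and its log2 fold changes 1.33 ± 0.09, 1.44 ± 0.14 and 1.59 ± 0.12 (SE). The pair kept nearly the same proportion in all rats: the TPM ratio of *RT1-Db1* to *RT1-Da* was 1.61 to 1.79 in control rats and 1.67 to 1.84 in MWCNT-treated rats.

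In the RT1-B pair the proportion of the 2 chains differed between the groups. *RT1-Ba* (ENSRNOG00000000451, chr20:4066132-4070721), the α chain, had 567, 611 and 575 TPM in control rats and 1286, 1346 and 1127 in MWCNT-treated rats at Year 0.5. The β chain *RT1-Bb* (ENSRNOG00000032708, chr20:4039413-4049711) had 387, 487 and 474 TPM in control rats and 1176, 1252 and 1094 in MWCNT-treated rats. In control rats the β chain was therefore below the α chain, and in MWCNT-treated rats the levels were closer. At Year 2 *RT1-Ba* was 563, 509 and 637 TPM in control rats and 1682, 1573.5 and 1469 in MWCNT-treated rats. *RT1-Bb* was 524, 452 and 544 TPM in control rats and 1672, 1513 and 1466 in MWCNT-treated rats. The TPM ratio of *RT1-Bb* to *RT1-Ba* within a rat was 0.682, 0.797 and 0.825 in control rats and 0.915, 0.930 and 0.971 in MWCNT-treated rats at Year 0.5. It was 0.796, 0.743 and 0.804 against 0.966, 0.927 and 0.977 at Year 1, and 0.931, 0.888 and 0.855 against 0.994, 0.962 and 0.998 at Year 2. The groups did not overlap at any time point and came nearest at Year 2; the ratio was looked at after the levels were seen and was not tested. Log2 fold changes were 1.53 ± 0.10, 1.65 ± 0.15 and 1.83 ± 0.11 (SE) for *RT1-Bb* and 1.25 ± 0.09, 1.37 ± 0.15 and 1.68 ± 0.11 (SE) for *RT1-Ba*.

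The invariant chain stood close to the sum of the 4 classical chains. The TPM of *Cd74* divided by the summed TPM of *RT1-Da*, *RT1-Db1*, *RT1-Ba* and *RT1-Bb* was 0.976 to 1.02 over the 9 control rats. In the 9 MWCNT-treated rats it was 0.913 to 0.973. All MWCNT-treated rats had a lower value than all control rats, although the nearest values were almost equal and the ratio was not tested.

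The RT1-DM chains, which load peptide onto the classical dimers, were far less abundant. *RT1-DMa* (ENSRNOG00000047854, chr20:3935529-3938915) had 70.6, 70.2 and 70.7 TPM in control rats and 197, 224 and 194 in MWCNT-treated rats at Year 0.5. Its levels at Year 1 were 81.0, 78.9 and 80.0 TPM in control rats and 193, 251 and 196 in MWCNT-treated rats. At Year 2 they were 92.8, 82.1 and 87.1 TPM in control rats and 263, 271.5 and 243 in MWCNT-treated rats. Control rats were tightly grouped for this gene, and among MWCNT-treated rats replicate 2 of Year 1 was again the highest of its group. Log2 fold changes of *RT1-DMa* were 1.69 ± 0.08, 1.66 ± 0.13 and 1.78 ± 0.09 (SE), with FDRs of 4.51e-06, 3.41e-05 and 1.09e-06. *RT1-DMb* (ENSRNOG00000049491, chr20:3945601-3952846) had mean levels of 58.8 ± 9.91, 60.8 ± 8.30 and 72.0 ± 11.0 TPM in control rats (SD, n = 3). The MWCNT-treated means of *RT1-DMb* were 141 ± 7.57, 148.5 ± 19.0 and 175 ± 6.54 TPM, and its log2 fold changes 1.41 ± 0.12, 1.53 ± 0.15 and 1.49 ± 0.12 (SE).

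Both RT1-DM genes have a further entry on chromosome 20 that bears on how their reads were counted. LOC108348072 (ENSRNOG00000047864, chr20:5240975-5244386, minus strand), which the study's supplementary material pairs with *RT1-DMa*, was read in 6 of 18 rats, 4 control and 2 MWCNT-treated. In those 6 rats it held 39 to 57 counts, and in the other 12 it was listed at 0, with no rat in between. Against the 522 to 2632 counts of *RT1-DMa* it was a small share, and it passed the count filter only at Year 2, with a log2 fold change of -1.01 ± 1.36 (SE) and an FDR of 0.564. Adding its counts to *RT1-DMa* gave log2 fold changes of 1.60, 1.67 and 1.73. LOC108348139 (ENSRNOG00000051002, chr20:5227045-5234290, minus strand) was picked out after its values were seen. It spans 7246 bases, the same span as *RT1-DMb*, and its counts divided by those of *RT1-DMb* were 0.905 to 1.06 in the 18 rats. At Year 0.5, for example, it held 550, 619 and 515 counts in control rats where *RT1-DMb* held 549, 631 and 538. Its log2 fold changes were 1.49 ± 0.12, 1.54 ± 0.12 and 1.57 ± 0.13 (SE). Whether the 2 entries split 1 set of reads was not established, since the handling of reads matching several places is not given in the sources used here, so the level of *RT1-DMb* is uncertain. With the counts of both entries added, its log2 fold changes were 1.45, 1.53 and 1.53.

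**Figure D2:**
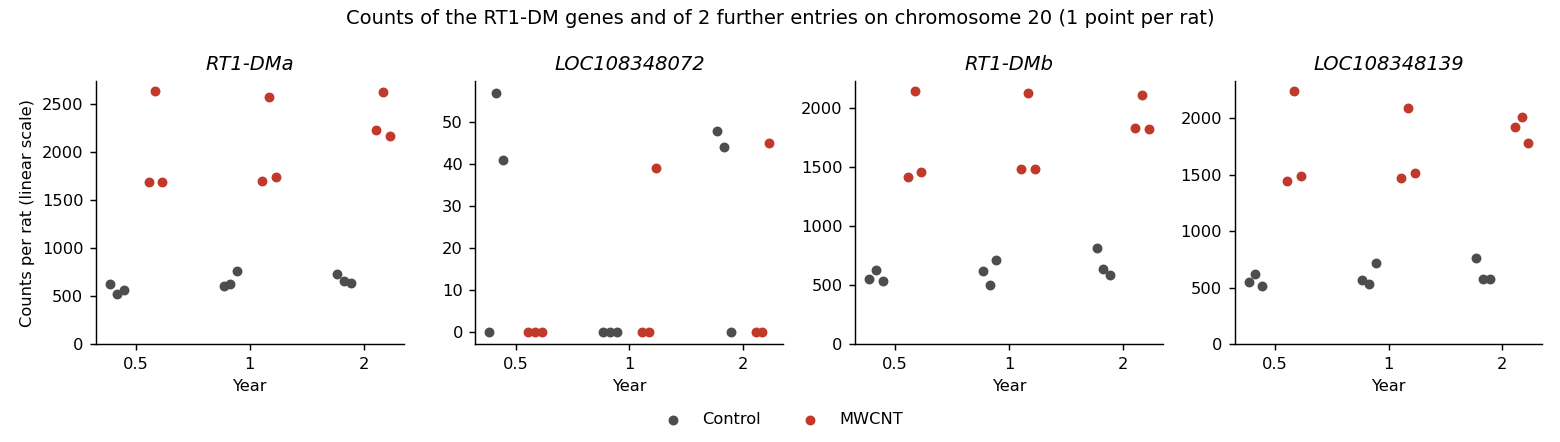
Counts per rat (linear axes, each panel with its own scale) of *RT1-DMa*, LOC108348072, *RT1-DMb* and LOC108348139 at Year 0.5, 1 and 2; control rats grey, MWCNT-treated rats red. LOC108348072 is at 0 in 12 of 18 rats, and LOC108348139 shows nearly the counts of *RT1-DMb* in every rat.

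*Ciita* (ENSRNOG00000002659, chr10:5213350-5260608), the coactivator of class II transcription, had the smallest log2 fold change of the 10 genes at Year 0.5 and Year 1. At Year 0.5 it had 9.94, 11.0 and 11.5 TPM in control rats and 18.6, 28.0 and 22.6 in MWCNT-treated rats. The levels at Year 1 were 12.1, 13.2 and 13.8 TPM in control rats and 17.1, 21.0 and 22.2 in MWCNT-treated rats. At Year 2 the levels were 12.2, 10 and 12.3 TPM in control rats and 30.1, 25.3 and 24.8 in MWCNT-treated rats. The groups did not overlap, and the gap was narrowest at Year 1, where control rats were highest and MWCNT-treated rats lowest on average. Log2 fold changes of *Ciita* were 1.24 ± 0.15, 0.87 ± 0.12 and 1.43 ± 0.12 (SE), with FDRs of 0.000278, 0.000517 and 1.96e-05. Its effect over all time points in the model of all 18 rats was 1.18 ± 0.08 on the log2 scale, beside 1.45 ± 0.07 for *Cd74* and 1.71 ± 0.07 for *RT1-DMa*; differences between genes were not tested.

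Of the co-stimulatory ligands, *Cd86* (ENSRNOG00000038835, chr11:67082193-67118795) had the largest fold change of the 10 genes at each time point. Its TPM at Year 0.5 was 7.71, 5.83 and 6.92 in control rats and 24.8, 29.7 and 23.0 in MWCNT-treated rats. At Year 1 it was 8.02, 8.97 and 8.04 in control rats and 24.4, 34.8 and 26.9 in MWCNT-treated rats, and at Year 2 8.27, 9.17 and 8.44 in control rats and 33.1, 32.2 and 30.2 in MWCNT-treated rats. No control rat exceeded 10 TPM and no MWCNT-treated rat fell below 20 TPM. The log2 fold changes were 2.06 ± 0.15, 2.03 ± 0.17 and 2.10 ± 0.10 (SE), that is, 4.18-, 4.08- and 4.29-fold, with FDRs of 2.5e-05, 4.14e-05 and 1.08e-06. *Cd80* (ENSRNOG00000001527, chr11:64827635-64855353) was the least abundant, with 27 to 67 counts in control rats and 78 to 186 in MWCNT-treated rats. In TPM, *Cd80* was 0.732, 1.30 and 1.07 in control rats and 2.20, 3.82 and 2.25 in MWCNT-treated rats at Year 0.5. Its level at Year 1 was 1.04, 1.36 and 1.25 TPM in control rats and 2.60, 2.34 and 2.64 in MWCNT-treated rats, and at Year 2 1.35, 1.02 and 2.21 TPM in control rats and 3.82, 2.90 and 3.06 in MWCNT-treated rats. The groups were apart at each time point, but at Year 2 the highest control rat came close to the lowest MWCNT-treated rat. The log2 fold changes of *Cd80* were 1.58 ± 0.31, 1.28 ± 0.18 and 1.32 ± 0.28 (SE), the widest errors among the 10 genes, with FDRs of 0.00396, 0.000678 and 0.00405. On the log2(TPM + 1) scale with limma the change of *Cd80* fell under the fold limit at all 3 time points, to 0.87, 0.67 and 0.78, a scale that compresses changes of genes near 1 TPM.

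**Figure D3:**
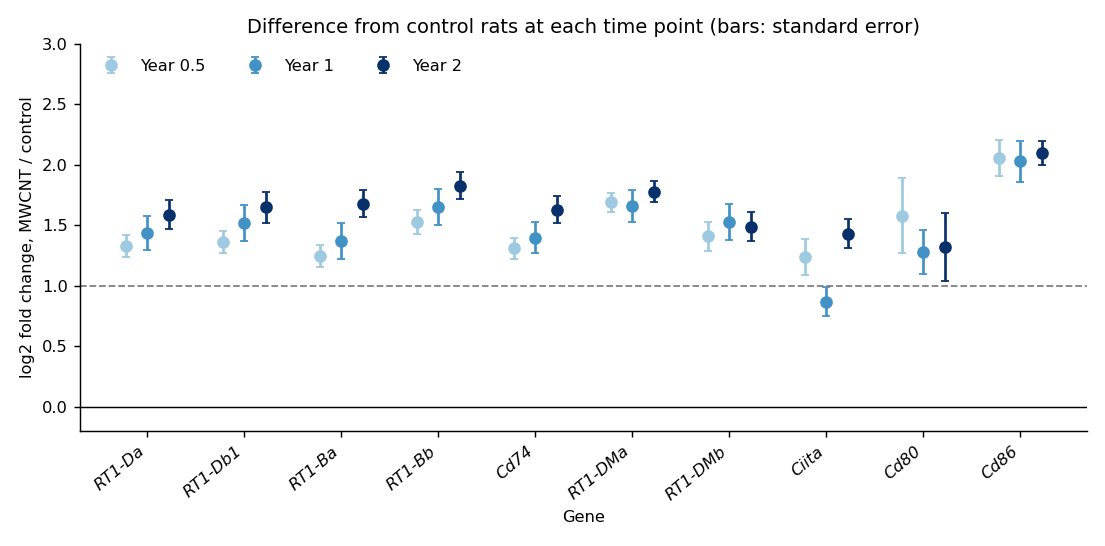
Log2 fold change of each gene, MWCNT-treated over control rats, at Year 0.5, 1 and 2, with standard errors (n = 3 rats per group); the dashed line marks the fold limit of 1 and the solid line no change. All values but *Ciita* at Year 1 lie above the dashed line, and *Cd86* is highest.

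Ordered by mean TPM, the 10 genes ran in nearly the same sequence in all 6 groups. *Cd74* came first, followed by *RT1-Db1* and *RT1-Ba*, and the ranges of these 3 did not overlap in any group. *RT1-Da* and *RT1-Bb* overlapped each other in all groups but MWCNT Year 2, where *RT1-Bb* was above *RT1-Da*. The ranges of *RT1-Ba* and *RT1-Bb* overlapped in Control Year 2 and in all MWCNT groups. The entry *RT1-DMa* was above the entry *RT1-DMb* in every group, with overlapping ranges in Control Year 2. With the TPM of LOC108348139 added to that of *RT1-DMb* the order turned over in 18 of 18 rats, for example to means of 107 against 70.5 TPM in Control Year 0.5 and 262.5 against 205 TPM in MWCNT Year 0.5, so the order of this pair is uncertain. *Ciita* was above *Cd86* in control rats at all time points, while in MWCNT-treated rats *Cd86* was above *Ciita*, with overlap at Year 0.5. *Cd80* was last throughout.

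Changes with time were tested in a model of all 18 rats. In that model the treatment effect averaged over the 3 time points met the DEG rule for 10 of 10 genes, against 7.72% of the 14843 genes in that model. The treatment effect did not differ between time points at an FDR below 0.05 for any of the 10 genes by edgeR, nor by DESeq2. At an unadjusted p below 0.05 there was 1, *Ciita* (FDR = 0.282), against 16.0% of all genes, and 0.667% of all genes passed the FDR. In control rats none of the 10 genes changed with time by edgeR or by DESeq2 (6.93% of all genes did), with 1 at an unadjusted p below 0.05, *RT1-DMa* (FDR = 0.179), against 25.3% of all genes. In MWCNT-treated rats 1 of 10 changed with time, *RT1-DMa* (FDR = 0.0367), against 10.1% of all genes, a like share. At an unadjusted p below 0.05 there were 9 of 10, against 25.0% of all genes. The comparison of Year 2 with Year 0.5 alone, in the same model, called 6 of 10 genes higher at Year 2 in MWCNT-treated rats, against 6.65% of all genes. These were *RT1-Bb* (0.49 ± 0.13 on the log2 scale, FDR = 0.0221), *RT1-Db1* (0.48 ± 0.14, FDR = 0.0284), *Cd74* (0.43 ± 0.12, FDR = 0.024), *RT1-DMa* (0.42 ± 0.11, FDR = 0.0153), *RT1-Da* (0.41 ± 0.13, FDR = 0.0478) and *RT1-Ba* (0.41 ± 0.13, FDR = 0.0434), all by edgeR. Within groups these 6 genes varied together from rat to rat, with Pearson's r of 0.795 to 0.986 for their pairs. Calls among the 10 genes are therefore not independent results. This count of 6 fell to 0 without replicate 1 or 3 of MWCNT Year 0.5 or replicate 1 of MWCNT Year 2, and to 1 without replicate 2 of MWCNT Year 2. It was 4 without the count filter and, with the other rats left out 1 at a time, 4 to 8. The count from the test over all 3 time points also depended on single rats. Without replicate 2 of MWCNT Year 1 it was 7, without replicate 1 of MWCNT Year 1 it was 3 and without replicate 2 of MWCNT Year 0.5 it was 2. It was 0 without any one of 5 rats: replicate 1 or 3 of MWCNT Year 0.5, replicate 1 or 2 of MWCNT Year 2, or replicate 3 of Control Year 1. DESeq2 called 4.

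The class II chain genes lie together on chromosome 20, and genes of the class I pathway sit among them. In the order of the files, from *RT1-DMa* at chr20:3935529 to *RT1-Da* ending at chr20:4132616, the region holds 12 entries: *RT1-DMa*, *RT1-DMb*, *Psmb9*, *Tap1*, *Psmb8*, *Tap2*, *RT1-DOb*, *RT1-Bb*, *RT1-Ba*, *RT1-Db1*, *RT1-Db2* and *RT1-Da*. *Psmb8* and *Psmb9* encode subunits of the immunoproteasome, and *Tap1* and *Tap2* the transporter that brings its peptides to class I molecules; these 4 were chosen for their place between the class II genes after their values were seen. None of them passed the test as higher at any time point. Log2 fold changes at Year 0.5, 1 and 2 were -0.27, -0.11 and -0.58 for *Psmb9*, -0.21, -0.28 and -0.48 for *Tap1*, -0.17, 0.03 and -0.50 for *Psmb8* and -0.13, 0.03 and -0.34 for *Tap2*. At Year 2 *Psmb9*, *Tap1* and *Psmb8* fell (FDR = 0.000409, 0.000274 and 0.000732), while *Tap2* did not pass (FDR = 0.135). *RT1-Db2*, a second β chain entry beside *RT1-Db1*, had 1 to 14 counts per rat and was below the count filter.

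**Figure D4:**
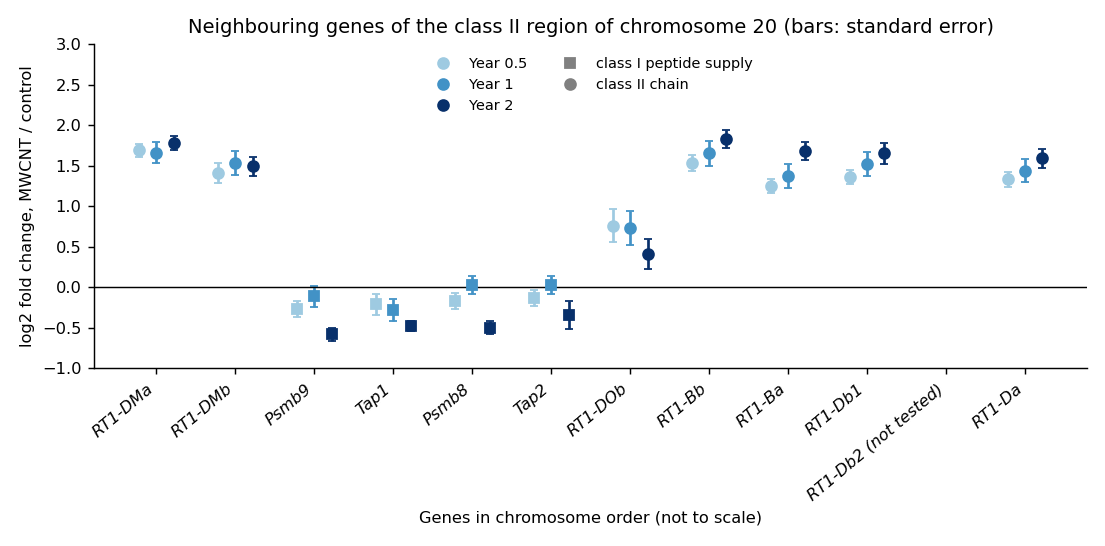
Log2 fold change (MWCNT-treated over control rats, with standard errors) at Year 0.5, 1 and 2 for the 12 neighbouring entries of the class II region in their chromosome order, which is not to scale; circles are class II chains and squares the class I peptide supply genes. The tested class II chains other than *RT1-DOb* lie above 1.2, *RT1-Db2* was not tested and has no point, and the 4 class I genes between them lie below 0.1.

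Among class II chains outside the 10 genes, the RT1-DO pair, an inhibitor of RT1-DM known from B cells and some dendritic cells, had smaller log2 fold changes at each time point than the RT1-D, RT1-B and RT1-DM chains, a difference between genes that was not tested. *RT1-DOa* had log2 fold changes of 0.63 ± 0.18, 0.39 ± 0.13 and 0.40 ± 0.17 (SE) with FDRs of 0.0207, 0.043 and 0.0788, and *RT1-DOb* of 0.76 ± 0.20, 0.73 ± 0.21 and 0.41 ± 0.19 (SE) with FDRs of 0.0154, 0.0223 and 0.0991. Both thus rose at Year 0.5 and Year 1 and did not pass the test at Year 2, and neither met the DEG rule. The Year 1 call of *RT1-DOa* was lost with scaling to library totals alone (FDR = 0.145) and with DESeq2 (FDR = 0.0858). Within a rat, the TPM ratio of *RT1-DOb* to *RT1-DMa* was 0.0860 to 0.122 in the 9 control rats and 0.0396 to 0.0626 in the 9 MWCNT-treated rats. The ratio of *RT1-DOa* to *RT1-DMa* was 0.156 to 0.243 and 0.0630 to 0.104, so for both RT1-DO chains every MWCNT-treated rat was below every control rat. These ratios were chosen after the levels were seen and were not tested.

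The endosomal enzymes that prepare class II molecules and their peptides were higher as well. For this and the lists that follow, counts are of genes with an FDR below 0.05, whatever the fold; over all genes tested 20.2%, 21.6% and 25.2% were higher and 18.6%, 19.6% and 24.0% lower at Year 0.5, 1 and 2. Of 8 proteases and reductases, 7 rose at Year 0.5 and 8 at Year 1 and at Year 2, none fell, and their median log2 fold change was 1.52, 1.70 and 2.02. *Lgmn*, an asparaginyl endopeptidase, had log2 fold changes of 1.75 ± 0.11, 1.94 ± 0.11 and 2.58 ± 0.10 (SE). *Ifi30*, the thiol reductase that opens disulfide bonds of antigens, had 1.59 ± 0.09, 1.82 ± 0.10 and 2.13 ± 0.09 (SE). The smallest changes were those of the cathepsins *Ctsl*, at -0.01 ± 0.07, 0.29 ± 0.09 and 0.63 ± 0.07 (SE), and *Ctsf*, at 0.43 ± 0.06, 0.59 ± 0.09 and 0.81 ± 0.07 (SE). *Ctss*, the cathepsin best known for cutting the invariant chain, had mean TPM of 77.6 ± 13.3 in control rats and 279 ± 25.3 in MWCNT-treated rats at Year 2 (SD, n = 3), with a log2 fold change of 2.06 ± 0.13 (SE); it was named for this role and not by the rule on list genes. The Year 1 call of *Ctsl* was lost with scaling to library totals alone (FDR = 0.162).

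The factors that bind class II promoters did not move as a group. Of 12 factors, 3 rose and 2 fell at Year 0.5, 3 rose and 0 fell at Year 1, and 3 rose and 4 fell at Year 2, with median log2 fold changes of -0.08, -0.01 and -0.07. When libraries were scaled to their totals alone, 5, 5 and 6 of the 12 fell instead. The X box binding subunits *Rfx5*, *Rfxap* and *Rfxank*, named here after their values were seen, did not pass the test at any time point. For *Rfx5* the log2 fold changes were 0.13 ± 0.07, 0.05 ± 0.07 and 0.03 ± 0.09 (SE). Those that rose included *Spi1*, the PU.1 factor of myeloid cells, at 1.11, 1.33 and 1.26, and *Irf4* at 1.25, 1.10 and 1.55. *Irf1*, an interferon-induced factor that acts on the *Ciita* gene, fell at Year 0.5 and at Year 2, with log2 fold changes of -0.55 ± 0.15, -0.32 ± 0.15 and -0.79 ± 0.07 (SE) and FDRs of 0.0183, 0.107 and 1.63e-05. *Nfyb*, a subunit of the Y box factor, had -0.33, -0.22 and -0.45 and fell at Year 0.5 and at Year 2.

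The interferon-γ and interleukin-10 list held 8 genes, of which 6 passed the count filter. *Ifng*, the cytokine that induces *Ciita*, had 0 to 5 counts per rat and *Il10* 0 to 8 counts, so a difference in either was not detectable at this depth. Of the 6 tested, 4 rose and 0 fell at each time point, although 2 rose at each, and 1 fell at Year 2, when libraries were scaled to their totals alone. The largest changes at Year 2 were those of the receptor chains *Il10ra* (0.75 ± 0.10) and *Ifngr2* (0.60 ± 0.09), whereas *Jak1* (0.10 ± 0.07) and *Socs1* (-0.27 ± 0.12) did not pass.

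Genes that set how long class II stays at the surface were tested in 3 cases. *Marchf1* and *Marchf8* encode ubiquitin ligases that target class II and CD86 for internalisation, and *Cd83* a protein that opposes MARCHF1. *Cd83* rose at every time point, with log2 fold changes of 1.50 ± 0.15, 1.83 ± 0.23 and 1.99 ± 0.11 (SE). *Marchf1* did not pass at Year 0.5 (FDR = 0.0807) and rose at Year 1 and Year 2, with log2 fold changes of 0.66 ± 0.27, 0.86 ± 0.26 and 1.53 ± 0.28 (SE). *Marchf8* rose by less than the fold limit, with 0.25 ± 0.06, 0.22 ± 0.07 and 0.47 ± 0.07 (SE). With scaling to library totals alone it passed at Year 2 but not at Year 0.5 (FDR = 0.076) or Year 1 (FDR = 0.349), and with DESeq2 not at Year 1 (FDR = 0.0514).

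Co-stimulators and receptors other than *Cd80* and *Cd86* were mixed. Of 10 tested, 5 rose and 2 fell at Year 0.5, 5 rose and 1 fell at Year 1, and 4 rose and 2 fell at Year 2. *Vtcn1*, an inhibitory relative of CD80, went from a mean of 0.239 ± 0.182 TPM in control rats to 2.62 ± 0.576 in MWCNT-treated rats at Year 2 (SD, n = 3; FDR = 0.000374), with 1 to 11 counts per control rat. *Ctla4*, the inhibitory receptor for CD80 and CD86, had log2 fold changes of 1.74 ± 0.43, 1.10 ± 0.28 and 1.17 ± 0.36 (SE) and rose at each time point, although with DESeq2 not at Year 2 (FDR = 0.0504). *Cd28*, the activating receptor for the same ligands, had -0.12 ± 0.28, -0.37 ± 0.38 and -1.03 ± 0.32 (SE) with FDRs of 0.759, 0.452 and 0.0251, and its difference between time points did not pass the interaction test. *Cd40lg* fell at each time point, with -1.29 ± 0.32, -1.06 ± 0.33 and -1.77 ± 0.45 (SE).

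Genes of class I presentation moved in both directions. Of 14 class I presentation genes, 4 rose and 1 fell at Year 0.5, 7 rose and 2 fell at Year 1, and 4 rose and 5 fell at Year 2. Their median log2 fold change was 0.09, 0.25 and 0.09. Under scaling to library totals alone the counts were 3 higher and 3 lower, 4 higher and 3 lower, and 4 higher and 6 lower. The genes with the largest rise at Year 2 were the chaperones *Calr* (0.95 ± 0.10) and *Pdia3* (0.79 ± 0.10), which serve protein folding in general. The class I gene *RT1-CE1* fell at every time point, at -1.08 ± 0.12, -0.75 ± 0.10 and -1.40 ± 0.15 (SE), though its reads may be shared with other RT1 class I genes. The class I genes *RT1-A1* and *RT1-A2*, named outside the rule on list genes, did not fall. *RT1-A1* had 0.37, 0.58 and 0.28 and passed as higher at Year 0.5 and Year 1. *RT1-A2* had 0.28, 0.58 and 0.22 and passed as higher at Year 1. *Nlrc5*, the class I counterpart of *Ciita*, had -0.18 ± 0.10, -0.45 ± 0.10 and -0.77 ± 0.15 (SE) with FDRs of 0.187, 0.00564 and 0.00304.

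Markers of cells that carry class II moved in different directions, and their part in the levels of the 10 genes was not tested. Of 12 macrophage and monocyte markers, 11, 9 and 12 rose and 0, 1 and 0 fell at Year 0.5, 1 and 2. Their summed TPM was 486.5 to 675 in control rats and 1349 to 2409.9 in MWCNT-treated rats. *Cd68* had log2 fold changes of 2.44, 2.50 and 3.03, while *Csf1r* had 0.34, 0.34 and 0.55. *Marco*, a scavenger receptor, had 0 to 7 counts in control rats and 26 to 130 in MWCNT-treated rats. *Cd163* had -0.25 ± 0.31, -1.15 ± 0.26 and 0.44 ± 0.14 (SE), with a fall at Year 1 and a rise at Year 2. The rise was lost with scaling to library totals alone (FDR = 0.131) and with DESeq2 (FDR = 0.0519). Of 9 alveolar type 2 cell markers, 9, 7 and 8 rose and none fell (under scaling to library totals alone 1 fell at Year 1 and 1 at Year 2), with summed TPM of 28209 to 37402 in control rats and 52125 to 61992 in MWCNT-treated rats. *Sftpa1* and *Sftpd*, which encode surfactant proteins, had 1.50, 1.39 and 1.55 and 1.31, 1.44 and 1.90, while *Sftpb* had 0.47, 0.24 and 0.33 and *Etv5* 0.24, -0.18 and -0.13. With scaling to library totals alone the calls of *Sftpb* at Year 1 and Year 2 and of *Csf1r* and *Etv5* at Year 0.5 were lost.

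Dendritic cell markers were divided. Of 11 tested, 7, 6 and 5 rose and 1 fell at each time point, with median log2 fold changes of 0.57, 0.45 and 0.02. The summed TPM of the list was 124 to 154 in control rats and 190.3 to 229 in MWCNT-treated rats. At Year 2 the higher sum lay in *Clec10a* and *Itgax*, the latter named after its values were seen. Their mean TPM was 29.7 and 23.7 in control rats and 98.1 and 57.4 in MWCNT-treated rats. *Clec10a* had log2 fold changes of 1.53, 1.25 and 1.94 and *Ccl22* of 2.60, 1.82 and 1.67. *Zbtb46*, a factor of classical dendritic cells that endothelium also expresses, fell at -0.47, -0.51 and -0.96, and *Ccr7* had -0.16, -0.08 and -0.35 without passing. The endothelial marker *Cdh5*, from the list of lung tissue markers, fell at -0.82, -0.67 and -1.07, and a link to *Zbtb46* was not tested. More B cell markers fell than rose: of 9 tested at Year 0.5, 1 rose and 7 fell, and of 8 tested later, 1 rose at each time point while 2 and 4 fell. Their summed TPM was 58.4 to 115 in control rats and 26.8 to 58.6 in MWCNT-treated rats, which overlapped narrowly. *Cr2* fell at -0.96, -1.08 and -2.03, *Blk* had 0.03, -0.07 and -0.36, and *Fcer2*, an IgE receptor that myeloid cells also express, rose at 0.80, 1.26 and 2.24. Of 8 T cell markers, 1 rose at each time point and 5, 2 and 6 fell. The one that rose was *Cd4*, at 1.17, 1.18 and 1.81, which in rats is also carried by macrophages. *Cd3g* had -0.59, -0.58 and -1.63, *Cd5* -0.60, -0.40 and -1.50 and *Cd8b* 0.37, -0.11 and 0.26. The summed T cell marker TPM was 192 to 322 in control rats and 192 to 292 in MWCNT-treated rats. Without *Cd4* the other 7 summed to 139.7 to 259 TPM in control rats and 67.0 to 131 TPM in MWCNT-treated rats. *Cd4*, the only one that rose, was left out after the values were seen, so the gap between these ranges is a description and was not tested. *Ptprc*, common to leukocytes, had 0.36 ± 0.08, 0.15 ± 0.08 and 0.28 ± 0.08 (SE). No marker in these lists was at 0 in all rats of a treatment.

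**Figure D5:**
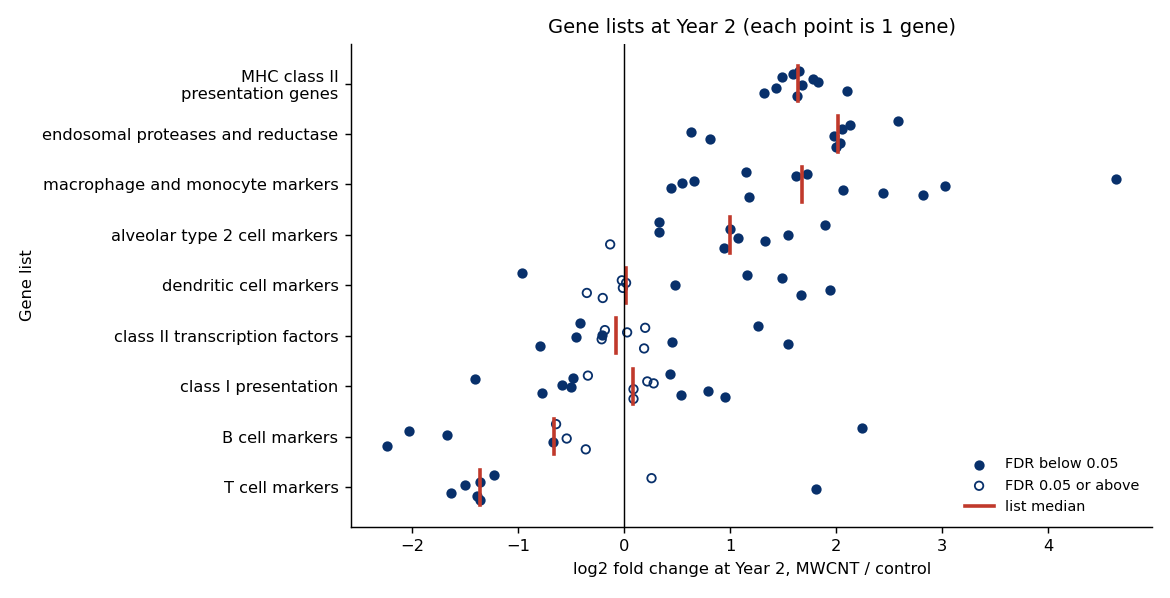
Log2 fold change at Year 2 (MWCNT-treated over control rats, n = 3 per group) for the 10 class II presentation genes and 8 lists; each point is 1 gene, filled where its FDR was below 0.05, and the red bar is the median of the list. All 10 class II presentation genes lie between 1.32 and 2.10, while the class I list is spread around 0.09.

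Within groups, the class II chains and the invariant chain varied together from rat to rat. Deviations of log2 CPM (counts scaled to library size with TMM factors) from the 6 group means were correlated over the 18 rats. Both genes of a pair were read from the same library, and the values are given as descriptions. For *Cd74* Pearson's r was 0.986 with *RT1-Da*, 0.98 with *RT1-Db1*, 0.962 with *RT1-Ba*, 0.956 with *RT1-Bb*, 0.888 with *RT1-DMa* and 0.773 with *RT1-DMb*. It was 0.67 with *Ciita*, 0.547 with *Cd86* and 0.487 with *Cd80*. *Cd80* and *Cd86* had an r of 0.00546. Among the other genes of the model, which held 14843 in all, those most like *Cd74* were *Psap* (0.969), *Pgk1* (0.924), *Hsd17b11* (0.921), *Ctsa* (0.918) and *Ergic3* (0.917). For *Ciita* they were *Zfp563* (0.902), *Stx3* (0.886), *Rpl10l* (0.875), *Slc25a13* (0.862) and *Cebpa* (0.846). Those most like *Cd86* were *Spg21* (0.874), *Cox7b* (0.868), *Mdh1* (0.866), *Cpsf3* (0.862) and *Ms4a6a* (0.853). The entries nearest to *Cd80* were *Ngly1* (0.894), *Klhl21* (0.872), *Brd7* (0.833), AABR07065699.1 (0.831) and LOC100909725 (0.818).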

How the data were processed

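Lung RNA from 18 rats (3 per treatment at each of 3 time points) was sequenced, and the authors deposited, for each time point, a table of raw counts and of TPM per gene, made with CLC Genomics Workbench; the submitters' processing notes name Rnor_6.0 and rn6, and the handling of multiply matching reads is not given in the sources used here. The deposited counts were used for tests and the deposited TPM, scaled by the authors to transcript length and depth, for levels. The tables also hold the authors' own fold changes and p-values, which were not used. Genes were filtered with filterByExpr (minimum count 10, minimum total 15), scaled by TMM and tested with edgeR 4.0.16 in R 4.3.3 by quasi-likelihood per time point, and in 1 model of the 6 groups for effects over time, interaction and time within a treatment. P-values were adjusted over all genes by the Benjamini-Hochberg method. Each SE is the absolute log2 fold change divided by the square root of its quasi-likelihood F statistic. The code was tested on simulated data. Alternatives used DESeq2 1.42.0 and limma 3.58.1 on log2(TPM + 1). Total counts of 13297643 to 21130757 per rat set the precision. Correlations used log2 CPM with TMM scaling and a prior count of 2.

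The 10 genes and the lists were chosen with earlier results of these data known. All 10 genes are named, with further entries that the study's material pairs with one of them, all tested genes of lists with 5 or fewer, otherwise those with the 2 largest and 2 smallest log2 fold changes at Year 2, and the 5 genes most correlated with *Cd74*, *Ciita*, *Cd80* and *Cd86*. Genes named outside this rule are marked as such. One marker gene that the naming rule picks is not reported here.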

Additional observations from a re-analysis of the deposited data

Results flagged for a closer look

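The interaction test of the model of all 18 rats called 5 genes of the lists set beside the class II presentation genes. The treatment effect of these 5 differed between time points. None of the 10 class II presentation genes passed. Over all genes 0.667% passed, so this does not set the 10 genes apart. *Ctsl*, a cathepsin, had log2 fold changes of -0.01, 0.29 and 0.63 at Year 0.5, 1 and 2 (interaction FDR = 0.0175). Its mean TPM was 281, 250 and 210 in control rats and 254, 259 and 279 in MWCNT-treated rats. *Lgmn*, also an endosomal protease, had 1.75, 1.94 and 2.58 (interaction FDR = 0.0401). Mean TPM of *Lgmn* was 197.5, 204 and 165 in control rats and 601, 662.5 and 850 in MWCNT-treated rats. *Pdcd1*, which encodes the PD-1 receptor, had 1.50, 0.35 and -0.46 (interaction FDR = 0.0175), a rise at Year 0.5 with the later values not passing the test. Its mean TPM was 1.57, 3.50 and 5.30 in control rats and 4.02, 3.77 and 3.30 in MWCNT-treated rats. The larger shift of means was thus in control rats. The macrophage markers *Mrc1* and *Mertk* had 1.26, 0.68 and 1.73 (interaction FDR = 0.0401) and 0.68, 0.36 and 1.62 (interaction FDR = 0.0106). Both fold changes were lowest at Year 1, where control means were highest. Control means were 53.2, 73.5 and 41.4 TPM for *Mrc1* and 22.8, 28.0 and 18.6 TPM for *Mertk*. MWCNT-treated means were 115.5, 99.9 and 117.7 TPM for *Mrc1* and 33.0, 30.6 and 48.9 TPM for *Mertk*.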

How the results depend on the processing

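The DEG counts of the 10 class II presentation genes were 10, 9 and 10 at Year 0.5, 1 and 2, and they were the same without the count filter, with scaling to library totals, with DESeq2, with 1 model of all 18 rats and with each rat left out. With limma on log2(TPM + 1) they were 9, 8 and 9, and by FDR alone 10 at each time point. Of 366 values for single genes under these alternatives, 363 kept their direction and their side of the DEG rule and 3 lost the call, all *Cd80* with limma. The number with an effect over all time points was 10 throughout. The number that changed with time in MWCNT-treated rats was 1, and it was 4 with DESeq2 and 0 to 7 when 1 rat was left out. The number higher at Year 2 than at Year 0.5 in these rats, examined after seeing the data, was 6, and it was 4 without the count filter, 5 with scaling to library totals, 6 with DESeq2 and 0 to 8 when 1 rat was left out. In control rats the number that changed with time was 0, and 0 to 1 when 1 rat was left out, the 1 arising without replicate 2 of MWCNT Year 1. The number with an interaction was 0 in all of these. Rats with the same replicate number did not deviate together (mean r = 0.00691 over 9 pairs), and with the replicate block the DEG counts were 10, 9 and 10, the count for the effect over all time points was 10 and that for the interaction was 0. The changes with time could not be fitted with the block, which is nested in the time point. Adding the counts of the further entries, chosen after seeing the data, changed no call. With 3 rats per group, small changes of low-count genes such as *Ifng* could not be seen.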
